A study of Homo sapiens with 6 samples.

Results

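Transcript levels of S100 calcium-binding proteins were set side by side in HS578T cells with and without an EP300 expression vector. The family was represented by 10 genes chosen by name (S100A2, S100A3, S100A4, S100A6, S100A8, S100A9, S100A10, S100A11, S100A13 and S100A16), each matched by 1 probe set. They are 10 of 17687 named genes, and their probe sets 10 of the 21448 in the deposited table. HS578T is an established line from a human breast carcinoma with mesenchymal features. EP300 (p300) acetylates histones and other proteins and serves as a co-activator of many transcription factors. The EP300 group was transfected with pcDNA 3 holding the cloned EP300 cDNA and the control group with pcDNA 3 alone. Both groups were kept under G418 in low-glucose DMEM with serum, glutamine and insulin. Per the series' design text, stably transfected clones were pooled and 3 independent cultures per condition were used, each on 1 Affymetrix whole-transcript array. The text does not state if cultures of 1 group stem from separate transfections, so the tests measure the spread between cultures.

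S100 proteins are small EF-hand proteins that bind calcium, mostly as dimers, and then expose a surface that docks onto partner proteins. Inside cells they act on annexins, myosin, the cytoskeleton and transcription regulators. Some are released and signal through receptors such as AGER and TLR4. In breast carcinoma the family is best known through S100A4, linked with cell motility and metastasis, and through S100A8 and S100A9, abundant proteins of myeloid cells that also appear in inflamed or dedifferentiated epithelia.

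Values are given as deposited, taken as log2. The 6 array medians lay between 4.456 and 4.497, the lower quartiles between 3.468 and 3.495 and the upper quartiles between 6.36 and 6.41, and correlations between arrays were 0.978 to 0.981 within groups and 0.977 to 0.981 between groups. No named probe set carries the symbol EP300, so the level of the transgene was not analysed here. The line's mesenchymal label was checked on its markers, and all 10 mesenchymal markers (VIM, FN1 and SPARC among them) had means above the upper quartile. Of 10 epithelial markers 5 had means below the lower quartile, and only KRT8 and KRT18 lay above the upper one. Of the 5 measured luminal markers XBP1 alone lay above the upper quartile. No detection calls are given, so a value near or below the lower quartile may be background. The lower quartile does not mark where background ends: of 11 measured myeloid markers only 3 had means below it. S100A2, S100A3, S100A4 and S100A9, with control means of 4.75, 5.18, 4.22 and 4.54, may therefore hold background too. Probe sets differ in their response, so the place of a value within its array serves only as a rough guide to background, and no gene's level is ranked against that of another.

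None of the 10 S100 genes changed past the threshold. In limma's moderated test 0 of 10 passed an adjusted p of 0.05 over all probe sets, against a background of 0.0% (0 of 21448). At an unadjusted limma p below 0.05, 0 of 10 were counted, against 6.52% of all probe sets. The estimates were positive for 4 genes and negative for 6, with a median of -0.07, beside 0.00098 over all probe sets. The median absolute difference of the family was 0.21, beside 0.20 over all probe sets, so the S100 genes differed about as much as the typical probe set. Limma adjusted p ran from 0.770 (S100A8) to 0.991 (S100A9). In RNA from whole cultures, fewer cells that express a gene and less RNA per cell cannot be told apart.

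Each estimate had a 95% interval. All 10 intervals held 0 and all 10 lay within 1 log2 unit of 0 on both sides, from -0.78 (the lower bound for S100A11) to 0.98 (the upper bound for S100A8). These intervals are per gene and not adjusted for their number. They bound the difference in probe set values, and for a probe set that may read background, such as S100A8, they do not bound the change of the transcript.

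**Figure D1:**
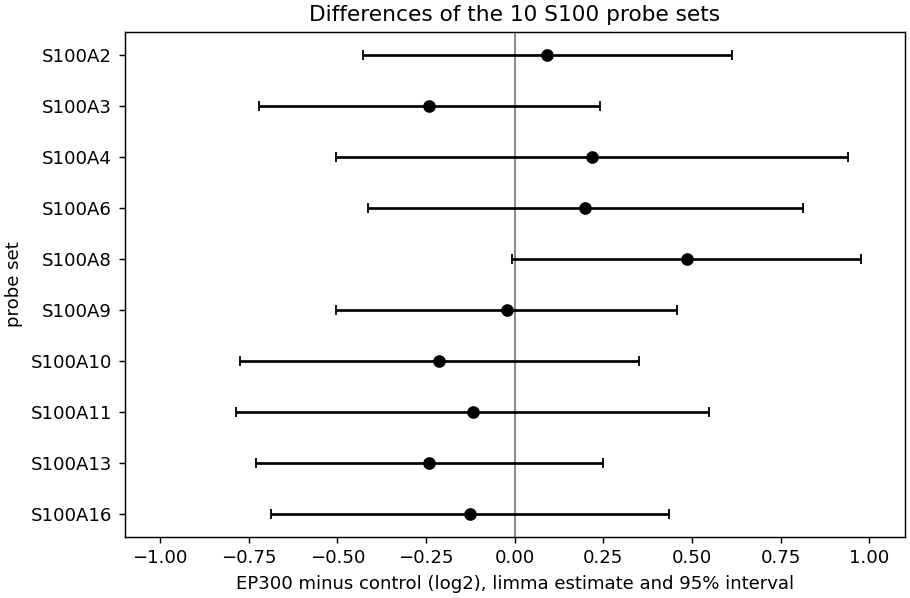
Difference between EP300 and control cultures for the 10 S100 probe sets, as the limma estimate (point) with its 95% interval (bar) on the log2 scale, 3 arrays per group. All 10 bars cross 0, S100A8 only narrowly (-0.00702 to 0.98), and none reaches 1 or -1.

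S100A8 and S100A9 together form calprotectin, the metal-chelating heterodimer released by neutrophils and monocytes. S100A8 read 3.05, 2.68 and 3.06 in control cultures 1 to 3 and 3.57, 3.46 and 3.22 in EP300 cultures 1 to 3. The 3 EP300 values all lay above the 3 control values, and S100A8 was the only one of the 10 genes whose groups did not overlap, where 12.2% of all probe sets did not overlap. The difference was 0.49 ± 0.22 SE (95% interval -0.00702 to 0.98, limma adjusted p = 0.770). Limma's unadjusted p was 0.0527 and that of an exact permutation test (two-sided) 0.1, where no smaller value can be reached with 3 against 3 arrays. A difference of this size or larger was seen in 12.1% of probe sets. On 5 of 6 arrays S100A8 lay below the lower quartile and on none above the array median, so no fold is given. Its unadjusted p fell below 0.05 in 2 of 12 alternative settings, with adjusted p from 0.754 to 0.879 by limma over the 12.

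S100A9, its partner subunit, read 4.56, 4.34 and 4.71 in control and 4.67, 4.34 and 4.54 in EP300 cultures. The groups overlapped almost completely around the array median. The difference was -0.02 ± 0.22 SE (95% interval -0.50 to 0.46, limma adjusted p = 0.991), the smallest absolute estimate of the 10 genes. The estimates of the 2 calprotectin genes were thus 0.49 and -0.02, and the difference between them was not tested. Of 11 measured myeloid markers, 0 passed limma's adjusted threshold. For 1, FCGR3A, which was lower, the unadjusted limma p was below 0.05, as for 6.52% of all probe sets. The summed level of these markers was 8.17 to 8.36 (log2) in control and 7.99 to 8.38 in EP300 cultures, and the leukocyte marker PTPRC read 4.05 ± 0.47 and 3.54 ± 0.05 (SD, n = 3 each). All cultures were of the HS578T line, so these values are not read as a share of myeloid cells. CD68 had the highest means of the 11 markers (6.70 in control, 6.74 in EP300 cultures). A link between these markers and the S100A8 values was not tested.

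A link between the promoters of these 2 genes and their estimates was not tested. The 250 bases before each RefSeq start (GRCh38.p14) are shown because S100A8 and S100A9 are partners whose estimates were set side by side. Capitals mark matches, on either strand, to 4 promoter motifs: the TATA box (TATAAA), the GC box (GGGCGG), the CCAAT box (CCAAT) and the AP-1 site (TGACTCA or TGAGTCA). All 10 genes had an entry, with 1 start each, and other starts were not examined.
S100A8 (chr1:153391189-153391438, minus strand): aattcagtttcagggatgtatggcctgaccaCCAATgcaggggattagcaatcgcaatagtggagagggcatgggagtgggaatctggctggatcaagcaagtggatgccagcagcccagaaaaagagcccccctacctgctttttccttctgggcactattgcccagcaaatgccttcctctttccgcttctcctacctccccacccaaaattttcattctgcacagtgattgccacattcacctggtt
S100A9 (chr1:153357604-153357853, plus strand): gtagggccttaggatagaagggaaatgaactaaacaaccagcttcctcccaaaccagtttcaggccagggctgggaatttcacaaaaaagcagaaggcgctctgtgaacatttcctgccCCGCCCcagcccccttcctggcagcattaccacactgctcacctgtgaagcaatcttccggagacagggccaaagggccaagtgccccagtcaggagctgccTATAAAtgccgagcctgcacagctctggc
S100A9 has a TATA box that begins 29 bases before the start and a GC box, on the opposite strand, whose leftmost base lies 131 bases before it. S100A8 has neither of them in this window and holds 1 CCAAT box. These are matches of letters and not shown to be bound.

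S100A4, which binds non-muscle myosin and is linked with motility of carcinoma cells, varied most. It read 4.03, 4.38 and 4.26 in control and 4.69, 4.95 and 3.68 in EP300 cultures. EP300 cultures 1 and 2 lay above all controls and EP300 culture 3 below all of them. The difference was 0.22 ± 0.32 SE (95% interval -0.50 to 0.94, limma adjusted p = 0.933). Its spread within groups, a pooled SD of 0.49, was larger than that of 85.9% of probe sets. The estimate turned on single arrays: it was 0.60 without EP300 replicate 3 and -0.04 without EP300 replicate 2. The former was the 1 of 12 settings in which its unadjusted limma p fell below 0.05 (adjusted p = 0.861). S100A4 lay below the array median on 4 of 6 arrays and below the lower quartile on none. Its values and their spread may hold background nonetheless.

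The cytoskeletal and annexin-binding members S100A10, S100A11 and S100A6 lay above the upper quartile on all 6 arrays. S100A10 (p11) forms a tetramer with annexin A2 at the membrane and, unlike its relatives, does not need calcium for it. It read 14.96, 14.14 and 14.58 in control and 14.19, 14.42 and 14.44 in EP300 cultures, above 98.8% to 99.1% of the probe sets on each array. The EP300 values lay within the range of the controls, and the difference was -0.21 ± 0.25 SE (limma adjusted p = 0.915). In linear terms the interval ran from 0.585 to 1.27 times the control level. Without control replicate 1, the highest array, the difference was -0.01, and without control replicate 2 it was -0.42. Its partner gene ANXA2 differed by -0.15 ± 0.20 SE (limma adjusted p = 0.926).

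S100A11, which binds annexin A1, read 15.66, 15.11 and 14.45 in control and 14.98, 15.01 and 14.87 in EP300 cultures. The control cultures spanned 1.20 log2 units around a tight EP300 group, with SDs of 0.60 and 0.08. The difference was -0.12 ± 0.30 SE (95% interval -0.78 to 0.55, limma adjusted p = 0.963). It was 0.17 without control replicate 1 and -0.43 without control replicate 3, and the sign turned only without control replicate 1. None of the 10 probe sets reached the ceiling of the values (19.93).

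S100A6 (calcyclin), a partner of the calcyclin-binding protein CACYBP, read 8.12, 8.48 and 7.64 in control and 8.09, 8.11 and 8.64 in EP300 cultures. The groups overlapped, with the lowest value in control culture 3 and the highest in EP300 culture 3. The difference was 0.20 ± 0.27 SE (limma adjusted p = 0.926), and it was -0.02 without control replicate 3. CACYBP itself differed by 0.27 ± 0.27 SE (limma adjusted p = 0.904).

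S100A13, which takes part in the release of FGF1 and IL1A, read 7.84, 7.64 and 7.40 in control and 7.57, 7.31 and 7.28 in EP300 cultures. EP300 cultures 2 and 3 lay below all controls, and EP300 culture 1 lay above control culture 3. The difference was -0.24 ± 0.22 SE, or 0.846 times the control level with an interval from 0.603 to 1.19 (limma adjusted p = 0.895). It stayed negative with each array left out, between -0.35 and -0.13. S100A16, a widely expressed member, read 7.99, 8.60 and 7.83 in control and 7.93, 8.17 and 7.94 in EP300 cultures. Control culture 2 was the highest array, and the difference of -0.13 ± 0.25 SE (limma adjusted p = 0.951) was 0.10 without it.

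The members best known from keratinocytes and hair lay between the array medians and upper quartiles. S100A2, a gene of basal keratinocytes, read 4.92, 4.59 and 4.76 in control and 5.15, 4.54 and 4.85 in EP300 cultures. EP300 culture 1 was the highest and EP300 culture 2 the lowest, and the difference was 0.09 ± 0.23 SE (limma adjusted p = 0.964). It was -0.06 without EP300 replicate 1. S100A3, a protein of the hair cuticle, read 5.15, 5.37 and 5.02 in control and 4.84, 4.83 and 5.15 in EP300 cultures. EP300 cultures 1 and 2 lay below all controls and EP300 culture 3 among them. The difference was -0.24 ± 0.21 SE (limma adjusted p = 0.893), and without EP300 replicate 3 it was -0.34.

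**Figure D2:**
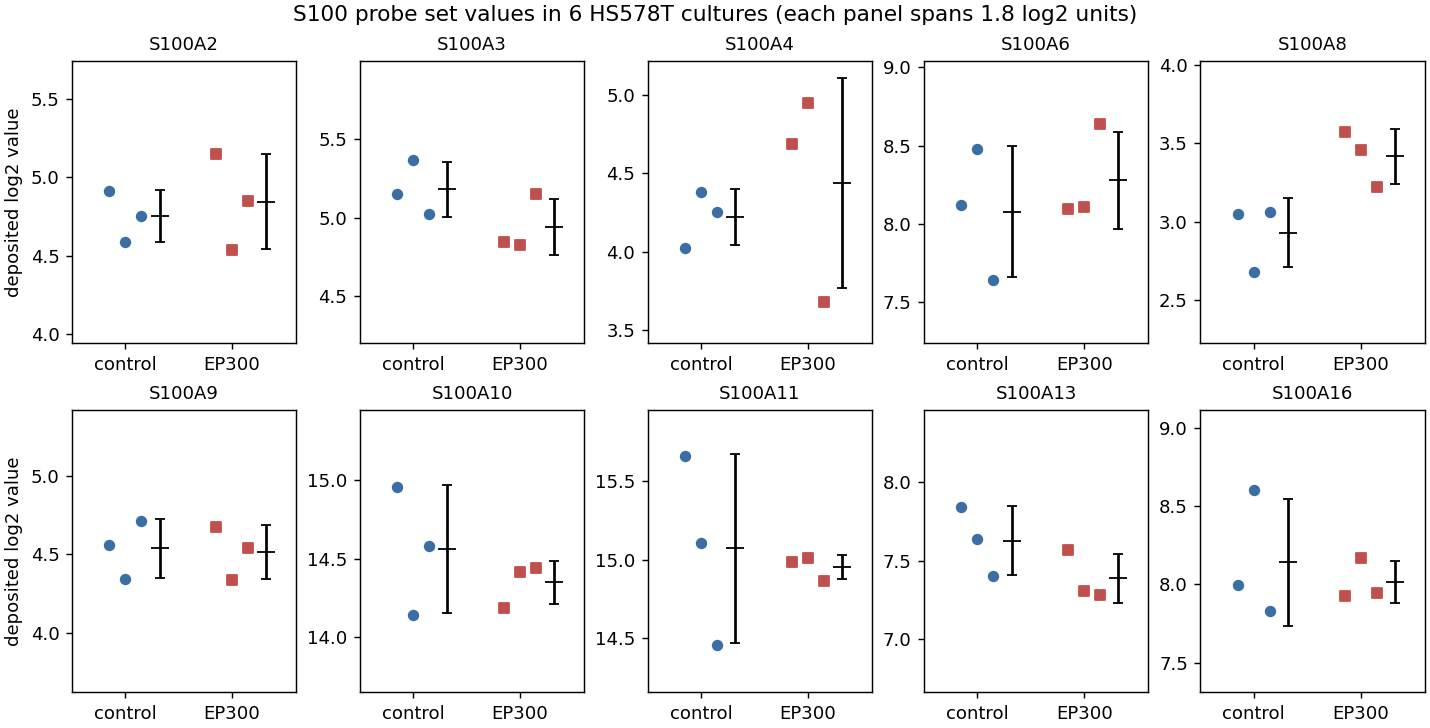
Deposited log2 value of each S100 probe set in the 3 control (blue circles) and 3 EP300 (red squares) cultures, in order of replicate 1 to 3, with mean and SD (black). Each panel spans the same number of log2 units around its own level. The groups separate for S100A8 only, and the wide bars of S100A4 (EP300) and S100A11 (control) show the largest spreads.

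Promoters of S100A10 and S100A4 are shown beside those of the calprotectin genes, as those of a member high on all arrays and of the member with the widest spread.
S100A10 (chr1:151993860-151994109, minus strand): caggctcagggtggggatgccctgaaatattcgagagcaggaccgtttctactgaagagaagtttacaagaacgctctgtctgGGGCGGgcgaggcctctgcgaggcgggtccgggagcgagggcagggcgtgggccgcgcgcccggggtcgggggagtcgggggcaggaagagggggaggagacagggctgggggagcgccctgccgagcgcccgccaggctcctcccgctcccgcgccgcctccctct
S100A4 (chr1:153545807-153546056, minus strand): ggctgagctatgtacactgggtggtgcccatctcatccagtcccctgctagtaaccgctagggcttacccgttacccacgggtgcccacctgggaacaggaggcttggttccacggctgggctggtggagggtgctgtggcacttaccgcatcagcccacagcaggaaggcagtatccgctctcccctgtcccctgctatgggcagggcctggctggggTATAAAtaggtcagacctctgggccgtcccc
S100A10 has 24 CpG dinucleotides in this window, a G+C content of 71.2% and a GC box. S100A4 has 7 CpG dinucleotides, a G+C content of 62.8% and a TATA box that begins 31 bases before the start. The median G+C content over all promoters was 58%. The other members above the upper quartile on all 6 arrays, S100A6, S100A11, S100A13 and S100A16, have 24, 15, 15 and 1 CpG dinucleotides. A link between these features and level or spread was not tested. S100A8 and S100A9 have 2 and 4 CpG dinucleotides, where the median over 27305 promoters was 11. Among the 10 promoters the TATA box was found in 2, the GC box in 6, the CCAAT box in 2 and the AP-1 site in 2 (S100A2 and S100A3). The shares over all 27305 promoters were 11.1%, 42.3%, 33% and 4.16%.

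Direction depended on single arrays for part of the family. With each array left out in turn, S100A3, S100A8, S100A10 and S100A13 kept their sign, and the other 6 genes changed it in at least 1 case. For S100A9 the difference was 0.06 without control replicate 3 and 0.07 without EP300 replicate 2. S100A8 ran from 0.36 without control replicate 2 to 0.58 without EP300 replicate 3. The median over the 10 genes was 0.06 without control replicate 1 and -0.07 with all arrays.

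**Figure D3:**
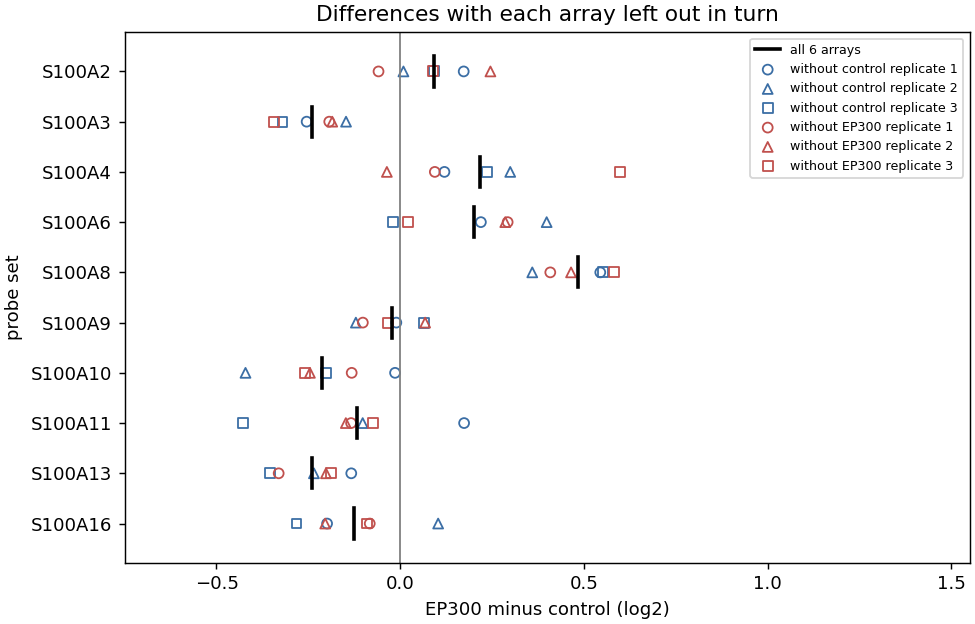
Difference between EP300 and control cultures (log2) for each S100 probe set with all 6 arrays (black line) and with 1 array left out (blue, a control array; red, an EP300 array). S100A8 stays to the right of 0 in each case, and S100A4 moves furthest, from -0.04 to 0.60.

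The genes outside the 10 give the setting. Among 10 other measured S100 genes, 0 passed the adjusted threshold by limma. At an unadjusted p below 0.05 there were 1 higher (S100G, the intestinal calcium carrier calbindin D9k, 0.51 ± 0.21 SE) and 1 lower (S100A1, a member of heart and muscle, -0.50 ± 0.20 SE), both with an adjusted p of 0.748. The background for this rule was 3.45% higher and 3.07% lower. The means of 6 of these 10 genes lay below the lower quartile, and none lay above the upper one. Their median difference was 0.22, beside -0.07 for the 10 genes above and 0.00098 for all probe sets.

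Partners and receptors did not change past the threshold either. Of 18 measured intracellular partners 0 passed by limma. ANXA6, which encodes annexin A6, was the 1 with an unadjusted limma p below 0.05 (-0.51 ± 0.21 SE, adjusted p = 0.748). That rule was met by 6.52% of all probe sets. AHNAK, a giant scaffold protein bound by the complex of S100A10 and annexin A2, differed by -0.62 ± 0.28 SE (limma adjusted p = 0.770). Of 13 annexins, 0 passed, 4 were positive and 9 negative, with a median of -0.11. Of 7 measured S100 receptors 0 passed and 0 had an unadjusted limma p below 0.05. AGER, the receptor for advanced glycation end products, differed by 0.36 ± 0.37 SE, and by -0.10 without EP300 replicate 3. Its means, 3.92 in control and 4.27 in EP300 cultures, lay below the array medians and may hold background. TLR4 differed by -0.16 ± 0.23 SE.

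The 29 other measured EF-hand calcium binders gave 0 adjusted calls and 3 with an unadjusted limma p below 0.05, a rule met by 6.52% of all probe sets. These were CETN3, a centrin of the centrosome (0.92 ± 0.23 SE), and RCN2, a reticulocalbin of the secretory pathway (0.68 ± 0.27 SE), both positive, and PDCD6 (ALG-2), negative (-0.70 ± 0.25 SE). Their limma adjusted p lay between 0.735 and 0.748. The plasminogen system, which S100A10 helps to localise at the cell surface, had 6 measured genes with 0 adjusted and 0 unadjusted calls. Of these 1 was positive and 5 were negative, with a median of -0.05. PLGRKT had the smallest p (-0.56 ± 0.29 SE, limma adjusted p = 0.792). PLAT had the estimate nearest to 0 (-0.0021 ± 0.21 SE).

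In gene order on chromosome 1 all 10 members lie in 1 interval that also holds the epidermal differentiation genes. S100A10 and S100A11 stand at one end, followed by the fused-type S100 genes such as FLG, then late cornified envelope and small proline-rich genes, and then the remaining members. The interval holds 46 measured genes outside the S100A family, of which 0 passed by limma, 16 were positive and 30 negative, with a median of -0.07. An unadjusted limma p below 0.05, met by 6.52% of all probe sets, was found for 2 of the 46. These were LCE3D (0.88 ± 0.28 SE, limma adjusted p = 0.737) and PGLYRP4 (-0.75 ± 0.24 SE, limma adjusted p = 0.738). The means of 26 of the 46 lay below the lower quartile. The 7 fused-type genes and the 13 cornified envelope genes had medians of -0.17 and -0.14, with 0 genes of either list at an unadjusted limma p below 0.05. Both lists are part of the 46, apart from TGM1, a cornified envelope gene outside the interval.

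**Figure D4:**
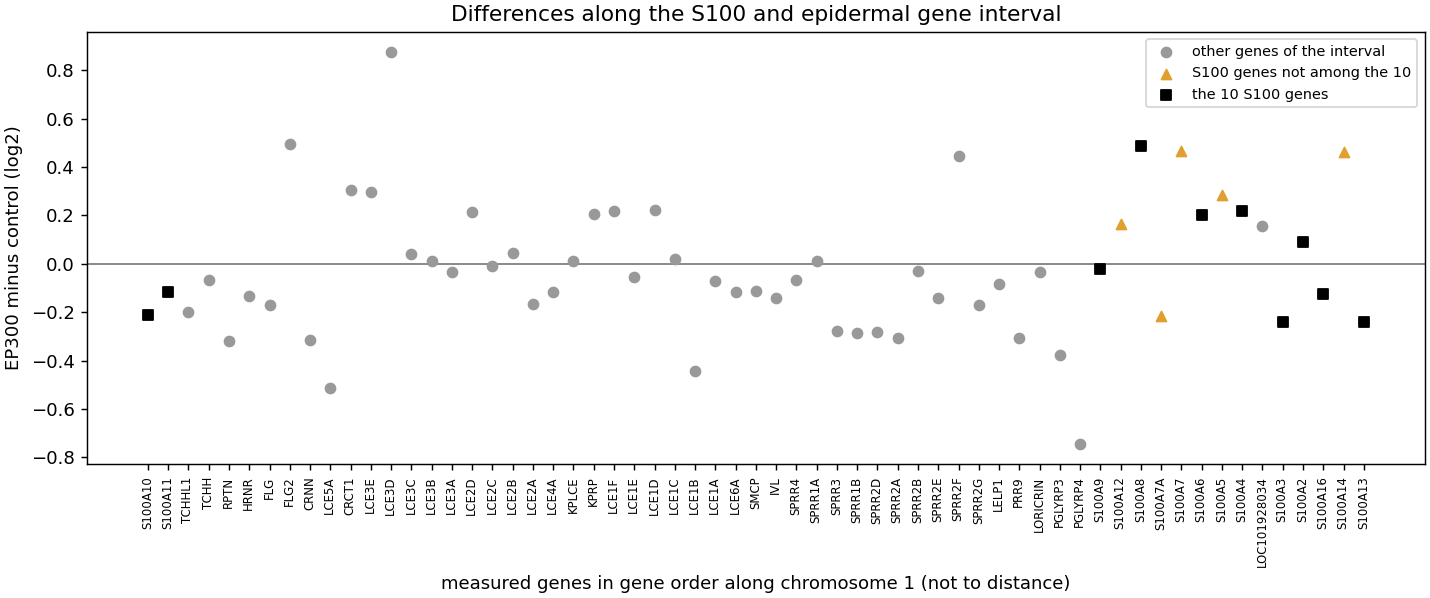
Difference between EP300 and control cultures (log2) for measured genes in their order along chromosome 1, from S100A10 to S100A13, with equal steps and not to distance. Black squares are the 10 S100 genes, orange triangles other S100 genes and grey circles the 46 remaining genes. Positive and negative values both occur along the interval, and LCE3D (0.88) and PGLYRP4 (-0.75) lie furthest from 0.

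Likeness of pattern was measured as the mean absolute difference between values centred on each gene's own mean over the 6 arrays. Among the 10 genes the closest pair was S100A2 and S100A9, at 0.11. The measure is not scaled to spread, so genes that vary little come out close. S100A9 had the smallest range of the 10 over the arrays (0.38). For S100A4 the 5 nearest of 13221 named probe sets (those whose range over the arrays was at least 0.5 times that of the member) were TNFSF11, FASTK, CD93, CRIPT and CUL5, at 0.063 to 0.098. For S100A8, the member with the smallest p, the 5 nearest of 16115 were TKT, SNRPB, RPGR, GLRX5 and CORIN, at 0.049 to 0.063. The distances come from 6 arrays and describe these arrays only.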

How the data were processed

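The authors' deposited values, 1 per probe set and array, were taken as log2, which no label states and which rests on their range. Per the submitters' processing notes Partek 6.6 was used. The sources used here do not give background correction, normalization, summarisation or build. The platform annotation gave 1 symbol for 17709 of 21448 probe sets. EP300 minus control was fitted on all probe sets with limma 3.58.1 (lmFit, eBayes; R 4.3.3), with no filter, covariate or block, and Benjamini-Hochberg adjustment over the whole table at 0.05. The fit was tested on simulated data. The number of arrays limits the precision.

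The 10 genes and all gene lists were chosen with earlier results of these data known. Named genes are the 10, up to 3 per list with the smallest p, the markers at the highest or lowest level for the check of the cell line (VIM and SPARC among them) and the nearest patterns; ANXA2, CACYBP, TLR4 and PLAT were added as partners of members after their values were seen. Gene order on the chromosome follows RefSeq (GRCh38.p14), and promoters are RefSeq's for that build. Same-numbered control and EP300 arrays did not deviate together (correlations -0.00153, -0.00528 and -0.00893), so the numbers were not taken as pairs. Alternatives were quantile normalization, median centring, a variance trend with robust estimation, array weights, the replicate block, a filter on the median level, the brightest probe set of each gene and leaving out each array.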

Additional observations from a re-analysis of the deposited data

How the results depend on the processing

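Under all 13 alternative settings 0 of the 10 S100 genes passed limma's adjusted threshold, with adjusted p from 0.754 to 0.9997, and 0 context or neighbouring genes passed. Among all probe sets 0 passed in each setting but one: a variance trend with robust estimation gave 4, none of them an S100 gene. With the replicate block 0 probe sets and 0 S100 genes passed. In this balanced design the block cannot move an estimate, so the median of the 10 genes stayed at -0.07. Only standard errors and p can differ there. The labels' numbers did not pair the arrays. Leaving out single arrays moved the median between -0.11 and 0.0550. It turned the sign of 6 genes, whose ranges were -0.0589 to 0.25 for S100A2, -0.0362 to 0.60 for S100A4, -0.0189 to 0.40 for S100A6, -0.12 to 0.0680 for S100A9, -0.43 to 0.17 for S100A11 and -0.28 to 0.10 for S100A16, and that of AGER (-0.10 to 0.65). With array weights S100A9 was at 0.0013. The causes were not tested. The filter on level left out S100A4 and S100A8, so neither has a value there. With 3 arrays a group and no detection calls, differences of low probe sets such as S100A8 are limited by an unknown background.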

Other observations

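The spread between cultures was smaller in the EP300 group than in the control group for 7 of the 10 S100 genes, where 49.0% of all probe sets had the smaller SD in the EP300 group. The exceptions were S100A2, S100A3 and S100A4. This was not tested, and genes measured on the same arrays are not independent. No single culture stood at one end for the whole family: control culture 1 held the highest value for 3 of the 10 genes and the lowest for 0, while control culture 3 and EP300 culture 2 each held the lowest for 3 and the highest for 1.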
